A study of Homo sapiens with 4 samples.

Results

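Peaks of an APC ChIP-seq experiment that lay in short interspersed elements (SINEs) were examined. The cells were HCT-116, a long-cultured line from a human colon carcinoma. A peak was a member when its deposited detailed annotation named a repeat of the SINE class, and members were grouped by the repeat name and family given there. The lists of both ChIP replicates held 14656 peaks in all, and 575 of these were SINE peaks. Replicate 1 contributed 253 of its 6263 peaks and replicate 2 contributed 322 of its 8393. Alu elements accounted for 162 SINE peaks in replicate 1 and 197 in replicate 2. MIR elements accounted for 85 and 113. The remaining 6 and 12 peaks carried the names AmnSINE1, MamSINE1, LFSINE_Vert or MER131, the last of which the annotation marks as an uncertain SINE. All members lay in introns or between genes, since repeat names were given to intron and intergenic peaks only.

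SINEs are short retroelements that encode no protein and were copied through the genome by the enzymes of LINE elements. Alu elements are found only in primates, descend from the RNA of the signal recognition particle, and carry an internal promoter for RNA polymerase III whose A and B boxes lie near the start of the element. The AluJ copies are the oldest, AluS copies are intermediate and AluY copies are the youngest, so AluY copies resemble each other most closely. MIR elements descend from a tRNA, spread early in mammalian evolution, and have since diverged so far that most copies can be told apart by sequence.

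Chromatin was immunoprecipitated with an antibody to APC, a tumor suppressor best known for targeting β-catenin for destruction, and sequenced next to the matching input chromatin. All 4 samples came from untreated HCT-116 cells described in the labels as APC wild-type, CTNNB1ΔSer45, with 2 biological replicates each of APC ChIP and input, and fixation in 1% formaldehyde (10 min) took place 24 h after seeding. The cells therefore retained APC and carried a β-catenin that escapes degradation, and no sample lacked APC. Peaks had been called by the authors in each replicate against its own input, and only the ChIP peak lists were analysed here. The lists gave position, width and nearest gene but no read count, p-value or enrichment, and sequencing depth was therefore unknown. A peak was called shared when its centre lay under 400 bp from a peak centre of the other replicate.

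Sequences of shared MIR regions are shown first, because AP-1 words were frequent in them. AP-1 is the dimer of FOS and JUN family proteins, and its core site is TGACTCA or, read on the other strand, TGAGTCA. The windows below hold the AP-1 word nearest the peak centre in 8 of the widest shared MIR regions that had such a word, on the plus strand of GRCh37, the assembly of hg19, with the word in capitals. They lie within 150 bp of the centre of the peak assigned to the MIR and need not lie inside the MIR itself. That was the replicate 1 peak where it was so assigned, and otherwise the replicate 2 peak, as for LOC100506860 and DNMBP.
LOC100506860 (MIR), chr7:130680148-130680197, plus strand: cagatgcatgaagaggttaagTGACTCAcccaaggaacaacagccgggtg
TOP1 (MIR3), chr20:39632133-39632182, plus strand: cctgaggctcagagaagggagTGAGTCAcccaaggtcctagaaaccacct
DNMBP (MIRb), chr10:101766187-101766236, plus strand: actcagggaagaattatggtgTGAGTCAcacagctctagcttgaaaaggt
LOC100505782 (MIRc), chr17:39560361-39560410, plus strand: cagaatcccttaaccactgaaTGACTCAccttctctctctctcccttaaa
H1F0 (MIRb), chr22:38178764-38178813, plus strand: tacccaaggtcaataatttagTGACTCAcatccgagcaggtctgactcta
RDX (MIRc), chr11:110228154-110228203, plus strand: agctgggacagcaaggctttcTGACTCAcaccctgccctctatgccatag
CLOCK (MIRb), chr4:56416179-56416228, plus strand: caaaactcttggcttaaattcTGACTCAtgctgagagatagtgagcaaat
AP4S1 (MIR), chr14:31507914-31507963, plus strand: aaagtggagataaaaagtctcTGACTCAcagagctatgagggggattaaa
Whether the words fell at a recurring place of the MIR was not examined.

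The widest shared MIR region with an AP-1 word and the widest without are given below as their central 300 bases on the plus strand, with AP-1 words in capitals, to show the context in which the word lies. Both windows are centred on the replicate 2 peak, since only that peak was assigned to the MIR. For LOC100506860 its centre lay 369 bp from the replicate 1 centre.
LOC100506860 (MIR), chr7:130679979-130680278, plus strand: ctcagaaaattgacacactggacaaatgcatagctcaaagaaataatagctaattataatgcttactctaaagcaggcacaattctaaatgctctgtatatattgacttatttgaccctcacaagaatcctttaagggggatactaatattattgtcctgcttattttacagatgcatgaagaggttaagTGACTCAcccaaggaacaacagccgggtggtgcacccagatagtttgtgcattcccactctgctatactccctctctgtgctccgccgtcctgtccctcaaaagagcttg
VTI1A (MIRc), chr10:114299264-114299563, plus strand: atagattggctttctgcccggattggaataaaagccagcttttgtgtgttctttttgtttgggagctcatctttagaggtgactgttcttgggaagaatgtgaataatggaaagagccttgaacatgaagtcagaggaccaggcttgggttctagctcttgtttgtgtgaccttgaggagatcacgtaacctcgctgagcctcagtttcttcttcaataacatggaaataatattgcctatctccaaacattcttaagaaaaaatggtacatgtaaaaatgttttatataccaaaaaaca
These 300 bases of the VTI1A region held no AP-1 word.

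In Alu peaks, AP-1 words recurred at the start of the element. The place usually reads TGGCTCA, and G3A, counted from the first of the 7 letters, makes it the AP-1 word TGACTCA. Alu starts were recognised by TGNCTCA followed after 4 to 8 bases by a fixed word of the element, on either strand, and 477754 of them were found in the genome. The TGACTCA form was uncommon in the genome and common in Alu peaks. TGGCTCA was the form at 452273 of these (94.7%), and TGACTCA was the form at 15833 (3.31%). Starts in Alu peaks were counted in the central 300 bp around the peak centre. Unshared Alu peaks of replicate 1 had a median width of 150 bp, so part of that window lay outside many of them. In shared Alu peaks of replicate 1, the AP-1 form was present at 10 of 22 recognised starts (45.5%, exact 95% interval 24.4 to 67.8). In unshared Alu peaks of replicate 1 it was present at 7 of 54 (13%, 5.37 to 24.9). Replicate 2 gave 8 of 21 in shared Alu peaks (38.1%, 18.1 to 61.6) and 17 of 55 in unshared ones (30.9%, 19.1 to 44.8). The share was thus above the genome-wide share in every set, and the intervals of shared and unshared peaks overlapped in both lists.

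The same contrast was seen when all peaks were laid over all Alu starts, whatever repeat the peak was assigned to. Of the 15833 starts with TGACTCA, 39 lay under a replicate 1 peak, 77 under a replicate 2 peak and 28 under peaks of both replicates. Of the 452273 starts with TGGCTCA, the numbers were 125, 293 and 87. Per 10000 starts this was 24.6 against 2.76 in replicate 1, 48.6 against 6.48 in replicate 2, and 17.7 against 1.92 in both. Over either list the rate was 7.59-fold higher for the AP-1 form. A second place in the Alu where AP-1 words were noticed lay in the middle of the element, where TGAGGCA is the usual form and G5T makes the AP-1 word TGAGTCA. It gave only 5 sites under a peak of either list (13.1 per 10000 sites, against 5.74 for the G form). The C form, which makes no AP-1 word, stood close to it, at 12.8 per 10000 with 3 sites. The A form stood at 6.34. At this place the AP-1 form was thus not set apart from the other rare forms. Both places were chosen after the peak sequences had been inspected, and these counts are a description without a test.

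**Figure D1:**
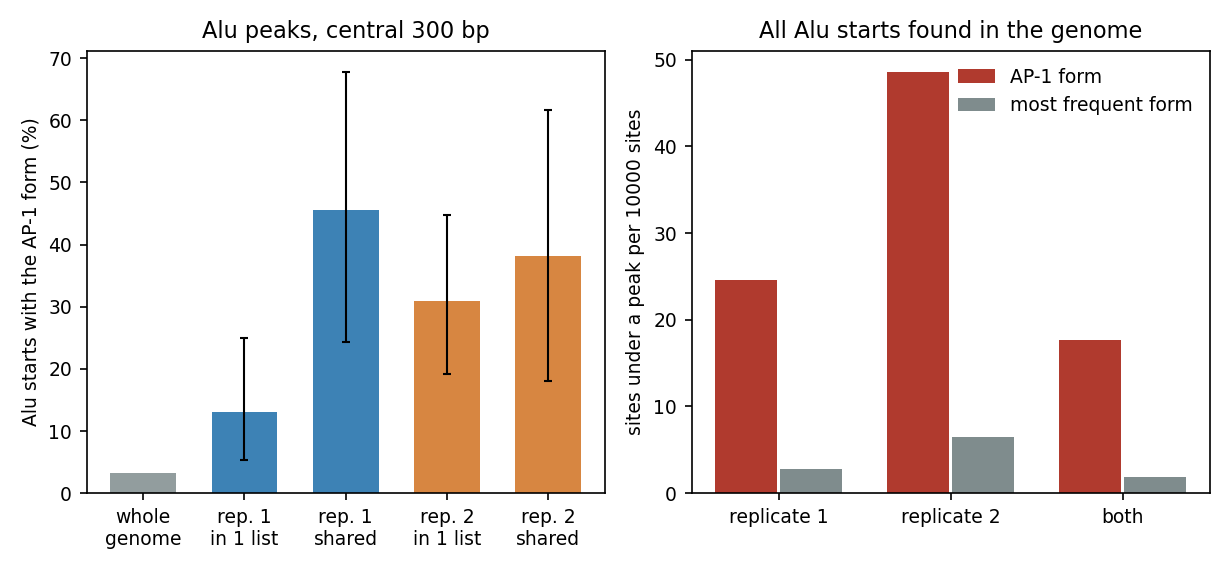
The left panel plots the percent of recognised Alu starts that carry the AP-1 form in the whole genome and in the central 300 bp of Alu peaks, with exact 95% intervals; the right panel plots how many starts per 10000 lay under a peak of replicate 1, of replicate 2 or of both, for the AP-1 form (TGACTCA) and the most frequent form (TGGCTCA). The genome stands at 3.31% and the Alu peaks between 13% and 45.5%.

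SINE peaks were found again in the other replicate less often than other peaks, with Alu peaks below the share of all peaks and MIR peaks near it. In replicate 1, 63.6% of all peaks were shared, and in replicate 2, 45.5%. Among SINE peaks, 106 of 253 were shared in replicate 1 (41.9%, exact 95% interval 35.7 to 48.2) and 106 of 322 in replicate 2 (32.9%, 27.8 to 38.3). Other peaks outside satellites were shared in 66.8% and 48.8% of cases. The difference was 24.9 percentage points in replicate 1 (41.9% against 66.8%, Fisher's exact test, two-sided, adjusted p = 3.30e-14) and 15.8 percentage points in replicate 2 (32.9% against 48.8%, adjusted p = 6.53e-08). Adjustment was by the Benjamini-Hochberg method over 10 comparisons of shares. Peaks of a list come from 1 library, so these tests cover counting over regions and not the spread between cultures.

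Alu and MIR peaks behaved differently in both lists. Of 162 Alu peaks in replicate 1, 42 were shared (25.9%, 19.4 to 33.4), against 59 of 85 MIR peaks (69.4%, 58.5 to 79). In replicate 2, 47 of 197 Alu peaks (23.9%, 18.1 to 30.4) and 51 of 113 MIR peaks (45.1%, 35.8 to 54.8) were shared. The odds of being shared were lower for Alu by an odds ratio of 0.156 in replicate 1 (exact test, adjusted p = 2.91e-10) and 0.382 in replicate 2 (adjusted p = 3.43e-04). MIR peaks stood close to intron and intergenic peaks outside repeats, of which 72.2% and 48.3% were shared. LTR peaks stood at 70.8% and 40.1%. LINE peaks lay between, at 47.2% and 29%.

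Within the Alu family, AluY peaks had the lowest shares. In replicate 1, 9 of 30 AluJ peaks (30%, 14.7 to 49.4), 29 of 89 AluS peaks (32.6%, 23 to 43.3) and 3 of 39 AluY peaks (7.69%, 1.62 to 20.9) were shared. In replicate 2, the numbers were 12 of 49 AluJ (24.5%, 13.3 to 38.9), 30 of 124 AluS (24.2%, 17 to 32.7) and 2 of 18 AluY (11.1%, 1.38 to 34.7). AluJ and AluS overlapped in both lists, and the AluY interval lay below the AluS interval in replicate 1 only. The FLAM and FRAM names, which mark free monomers of the Alu line, gave 1 of 4 and 3 of 6. The intervals of the 4 MIR names overlapped in both lists. In replicate 1 the share ran from 63.6% for MIR3 to 75% for MIRb, and in replicate 2 from 38.5% for MIRc to 50% for MIR3.

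**Figure D2:**
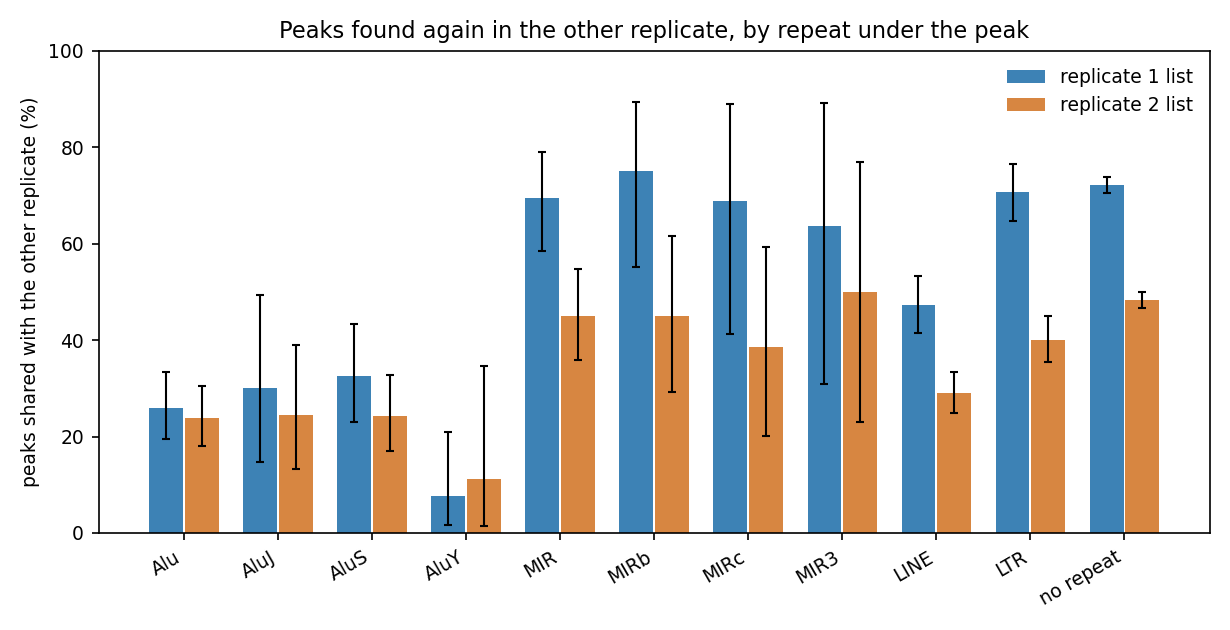
Percent of peaks shared with the other replicate, by the repeat family or name under the peak, with exact 95% intervals, in the list of replicate 1 (blue) and replicate 2 (orange). Alu peaks stand at 25.9% and 23.9% and MIR peaks at 69.4% and 45.1%; AluY is lowest at 7.69% and 11.1%.

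The repeat names with 10 or more peaks over both lists were 15 of 34. MIRb led with 28 and 40 peaks in replicates 1 and 2, followed by MIR with 30 and 33. AluY followed with 36 and 16, and was the only name among the 5 most frequent with more peaks in the smaller list. MIRc gave 16 and 26, AluSx 14 and 27, AluSx1 13 and 25, and AluSz 16 and 22. AluJb gave 11 and 23, AluJr 14 and 14, MIR3 11 and 14, and AluSq2 10 and 12. The last 4 were AluSp with 11 and 7, AluJo with 5 and 10, AluSz6 with 4 and 9 and AluSc8 with 8 and 2. Sharing was highest among these Alu names for AluSx1 in replicate 1, at 8 of 13, and lowest for AluSc8, at 0 of 8.

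Most Alu peaks of replicate 1 were narrow. Their median width was 157 bp (quartiles 145 and 258.5, range 63 to 1254), against 398 bp for MIR peaks (291 and 519, range 134 to 1781) and 371 bp for all peaks of that list. In replicate 2 the medians were 454 bp for Alu (233 and 633), 583 bp for MIR (449 and 763) and 532 bp for all peaks. Unshared Alu peaks had a median of 150 bp in replicate 1 and 382.5 bp in replicate 2, and shared ones 409.5 and 633 bp. AluY peaks were the narrowest of the Alu subfamilies, with medians of 147 and 177.5 bp.

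Sharing differed with width, and wide Alu peaks were shared about as often as other wide peaks in replicate 1. Of the 107 Alu peaks under 200 bp in replicate 1, 7 were shared (6.54%, 2.67 to 13), against 34.1% of peaks outside repeats of that width (29.8 to 38.6). From 400 to under 600 bp, 18 of 21 Alu peaks (85.7%, 63.7 to 97), 25 of 27 MIR peaks (92.6%, 75.7 to 99.1) and 88.5% of peaks outside repeats were shared. In replicate 2, 0 of 44 Alu peaks under 200 bp were shared, which allows a share of up to 6.82%. At 600 bp or more, 26 of 54 Alu peaks (48.1%, 34.3 to 62.2) were shared in replicate 2, against 75% of peaks outside repeats (72.8 to 77.2). With each list kept to its wider 50%, the SINE difference turned in replicate 1, to 73.1% of 78 SINE peaks against 71.6% of other peaks (exact test, adjusted p = 0.899), and the Alu against MIR difference was no longer past the threshold (adjusted p = 0.191 in replicate 1 and 0.262 in replicate 2). In replicate 2 the SINE difference was still 16.2 percentage points (36.1% against 52.3%, exact test, adjusted p = 3.49e-04).

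**Figure D3:**
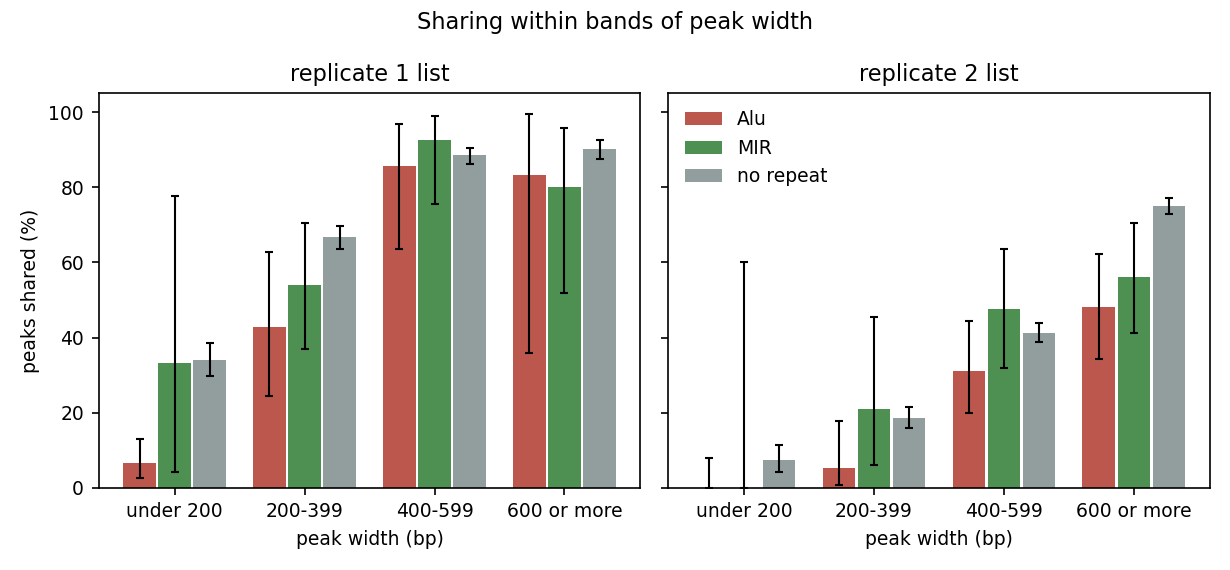
Percent of peaks shared with the other replicate within 4 bands of peak width in bp, for Alu peaks, MIR peaks and intron or intergenic peaks outside repeats, with exact 95% intervals; the left panel is the replicate 1 list and the right panel the replicate 2 list. Alu peaks of 400 to under 600 bp reach 85.7% in replicate 1, and those under 200 bp stand at 6.54%.

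Alu peaks of replicate 1 lay in sequence that is less often unique. Since reads were 50 bp and single-end, the percent of 50-base words of a peak that occur once in the genome was computed. The median was 77.9% for Alu and 100% for MIR peaks in replicate 1, and 92.3% and 100% in replicate 2. It was 51.7% for unshared and 93.3% for shared Alu peaks in replicate 1, and 92% and 93.4% in replicate 2. Unshared AluY peaks of replicate 1 had a median of 28.1%, unshared AluS peaks 51.2% and unshared AluJ peaks 100%. Of 58 replicate 1 Alu peaks with under 50% unique words, 0 were shared, which allows a share of up to 5.17%, and only 13 Alu peaks of replicate 2 fell in that range. Among peaks with at least 90% unique words, a setting chosen after the data were seen, 43.8% of 64 Alu and 74.4% of 78 MIR peaks were shared in replicate 1 (exact test, adjusted p = 6.83e-04), and 28.2% of 117 and 43.9% of 107 in replicate 2 (adjusted p = 0.0293). In the same setting the SINE difference in replicate 1 fell to 61.5% against 69.7% (exact test, adjusted p = 0.0616). The part of sequence uniqueness and width in the sharing of Alu peaks was not tested.

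**Figure D4:**
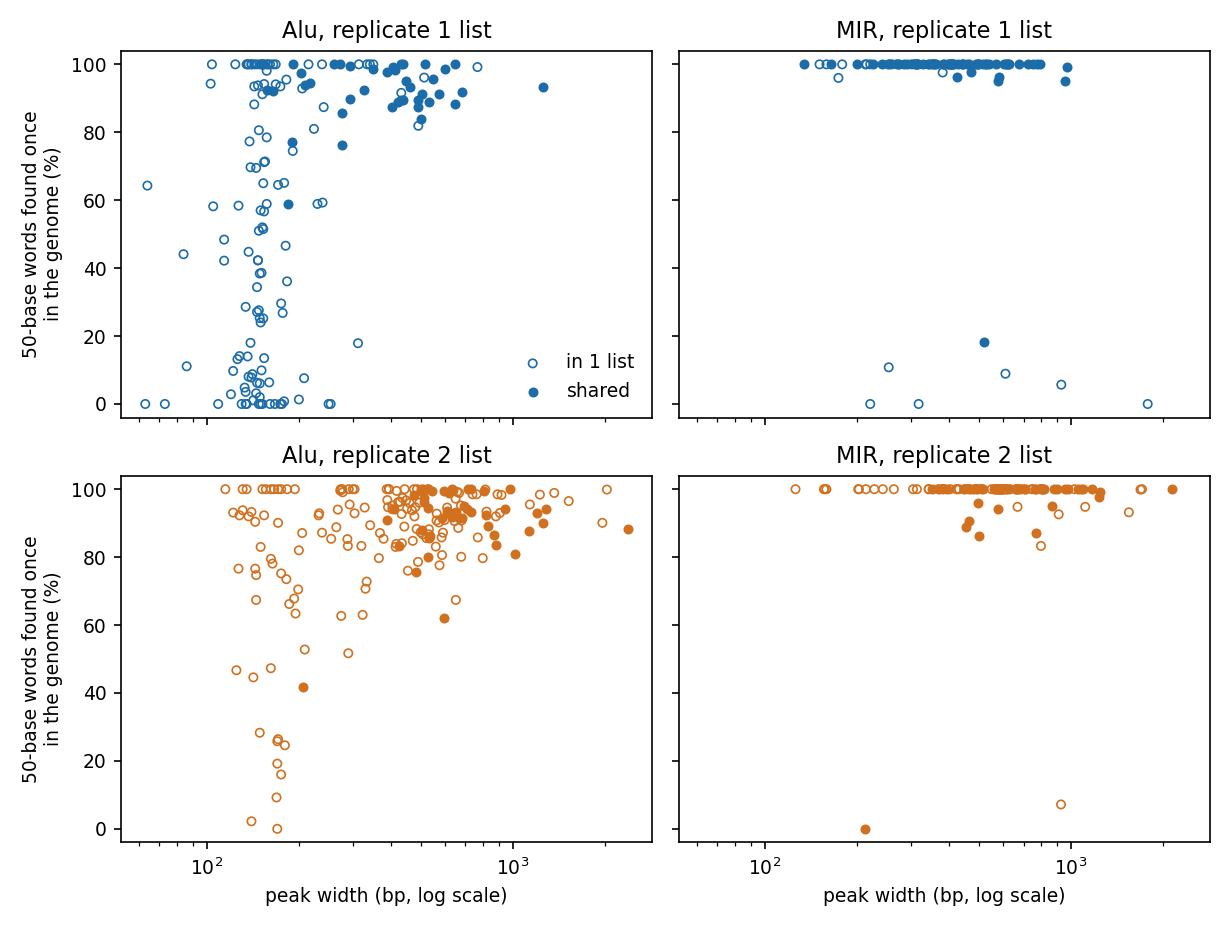
Each point is 1 peak, with its width in bp on a log axis and the percent of its 50-base words found once in the genome; filled points are shared and open points are in 1 list. Most replicate 1 Alu peaks form a column at widths near the median of 157 bp that spans the whole range of uniqueness. Most MIR peaks lie at or near 100%, but 7 of 85 in replicate 1 and 2 of 113 in replicate 2 lie under 50%.

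Shared SINE regions were often assigned to the element in 1 replicate only. Of the 42 shared Alu peaks of replicate 1, 20 had an Alu peak as partner in replicate 2, all 20 with the same repeat name, and 17 had a partner outside repeats. Of the 59 shared MIR peaks, 30 had a MIR partner, 28 of them of the same name, and 25 had a partner outside repeats. Counted from replicate 2, 21 of 47 Alu and 29 of 51 MIR peaks had a partner of the same family. The median distance between partner centres was 56.8 bp for Alu and 79.5 bp for MIR in replicate 1. With both lists joined, there were 158 shared regions in which at least 1 replicate was assigned to a SINE, 147 regions of replicate 1 only and 216 of replicate 2 only. Each shared replicate 1 peak counted as 1 region here, also where more than 1 had the same replicate 2 partner.

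The replicate 2 partner was the wider peak in 38 of 42 Alu and 56 of 59 MIR regions, with median ratios of 1.77 and 1.67. Widths in the replicates were correlated across shared regions with Pearson's r of 0.33 on log10 widths and Spearman's rho of 0.30 for Alu, and with 0.47 and 0.47 for MIR. Across all 3984 shared peaks of replicate 1 the values were 0.49 and 0.50. Regions of a library share its depth and threshold, and these values are descriptions across regions.

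SINE peaks made up a like part of both lists. They were 4.04% of replicate 1 and 3.84% of replicate 2 (Fisher's exact test, two-sided, adjusted p = 0.608, odds ratio 1.06, interval 0.888 to 1.25). Alu peaks were 64% of the SINE peaks in replicate 1 and 61.2% in replicate 2 (exact test, adjusted p = 0.608, odds ratio 1.13, interval 0.792 to 1.61). Among the wider 50% of each list the SINE share was 2.49% in replicate 1 and 3.5% in replicate 2 (exact test, adjusted p = 0.0227), in the opposite direction.

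Motifs were then compared between the families. Words were searched on both strands of the central 300 bp. AP-1 was searched as TGACTCA or its complement TGAGTCA. TCF7L2 was searched as AACAAAG, then as ATCAAAG, then as TACAAAG and lastly as TTCAAAG. USF was searched as CACGTG. EGR1 was searched as GCGGGGGCG or else as GCGTGGGCG, and SP1 and NRF1 by their usual consensus words. The B box of RNA polymerase III promoters was searched as GATCAANNC, then as GATCGANNC, then as GTTCAANNC and lastly as GTTCGANNC. SP1 and EGR1 words can overlap. Each shared replicate 1 peak was counted as 1 region, under its own repeat, and the unshared peaks of both lists were added. Where more than 1 replicate 1 peak had the same replicate 2 partner, each was counted. Shared peaks numbered 3984 in replicate 1 and 3819 in replicate 2. The count gave 312 Alu, 147 MIR and 6153 other intron or intergenic regions outside satellites. The 469 SINE regions used here therefore leave out 52 of the 521 SINE regions, in which only the replicate 2 peak was assigned to a SINE (26 Alu, 22 MIR and 4 others). Where their replicate 1 peak was an intron or intergenic peak outside satellites, these 52 are among the 6153 other regions. Over all 10837 regions of both lists, AP-1 words were present in 23.8%, TCF7L2 words in 24.7% and B boxes in 10.3%. USF words were present in 13.1%, SP1 words in 8.47%, EGR1 words in 2.84% and NRF1 words in 1.72%. A match is a word in the sequence and not evidence that the factor was bound. Members were grouped by repeat, and rates of these words over all Alu and MIR copies of the genome were not computed. Differences in word shares therefore cannot be told apart from differences between the repeat sequences themselves.

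TCF7L2, the transcription factor through which β-catenin acts, and AP-1 had words in MIR regions more often than in Alu regions. TCF7L2 words lay in 59 of 147 MIR regions (40.1%, 32.1 to 48.5) and 45 of 312 Alu regions (14.4%, 10.7 to 18.8; Fisher's exact test, two-sided, adjusted over 7 motifs, p = 8.94e-09). AP-1 words lay in 62 MIR (42.2%, 34.1 to 50.6) and 81 Alu regions (26%, 21.2 to 31.2; exact test, adjusted p = 0.0018). The AP-1 difference rested on the replicate 1 list, where 52.9% of MIR and 20.4% of Alu peaks had a word (exact test, adjusted p = 2.18e-06). In the replicate 2 list alone the shares were 38.9% and 35% (exact test, adjusted p = 0.946). USF words were also more frequent in MIR regions, at 9.52% against 3.53% (exact test, adjusted p = 0.0239), and this too was lost in the replicate 2 list (7.96% against 5.08%, adjusted p = 0.773). The TCF7L2 difference was past the threshold in each list alone, with 34.5% of MIR and 16.2% of Alu peaks in replicate 2 (exact test, adjusted p = 0.00138).

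The B box had the opposite pattern. It was present in 126 of 312 Alu regions (40.4%, 34.9 to 46.1) and 18 of 147 MIR regions (12.2%, 7.42 to 18.7; exact test, adjusted p = 1.75e-09). The Alu sequence itself contains a B box. This difference, and the next one for all SINE regions, were therefore set by the choice of members and are no result about APC. In all SINE regions together the B box lay in 31.1%, against 6.83% of other intron and intergenic regions (exact test, adjusted p = 9.96e-49). SP1, NRF1 and EGR1 words were rare in SINE regions, with 3, 0 and 1 regions of 469, and the count of 0 allows a share of up to 0.64%. SINE regions held fewer TCF7L2 words than other intron and intergenic regions (22.6% against 34%, exact test, adjusted p = 8.73e-07), fewer SP1 words (0.64% against 2.8%, adjusted p = 0.00421) and fewer USF words (5.33% against 9.62%, adjusted p = 0.00296), the last of which was not past the threshold in the replicate 2 list (adjusted p = 0.0782). For AP-1 the shares were 32% and 35.9% (exact test, adjusted p = 0.104), but over whole peaks they were 33.7% and 38.5%, which was past the threshold (exact test, adjusted p = 0.0448).

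Shared and unshared members are set side by side without a test, with shared regions taken as the replicate 1 peak. Among shared regions, AP-1 words lay in 19 of 42 Alu (45.2%, 29.8 to 61.3), 33 of 59 MIR (55.9%, 42.4 to 68.8) and 44.8% of regions outside repeats. Among unshared regions the shares were 62 of 270 Alu (23%, 18.1 to 28.4), 29 of 88 MIR (33%, 23.3 to 43.8) and 32.5%. For Alu the gap was larger in replicate 1, where 14 of 120 unshared peaks had an AP-1 word (11.7%, 6.53 to 18.8), than in replicate 2, where 48 of 150 did (32%, 24.6 to 40.1). TCF7L2 words lay in 12 of 42 shared Alu (28.6%, 15.7 to 44.6) and 33 of 270 unshared Alu regions (12.2%, 8.56 to 16.7). In MIR they lay in 31 of 59 shared (52.5%, 39.1 to 65.7) and 28 of 88 unshared regions (31.8%, 22.3 to 42.6). This order was not seen in the replicate 2 list, where 17 of 51 shared (33.3%) and 22 of 62 unshared MIR peaks (35.5%) had a TCF7L2 word. With shared regions alone, none of the 7 motifs differed between Alu and MIR past the threshold of the exact test (TCF7L2 adjusted p = 0.17, AP-1 adjusted p = 0.557, B box adjusted p = 0.274), in 42 against 59 regions.

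**Figure D5:**
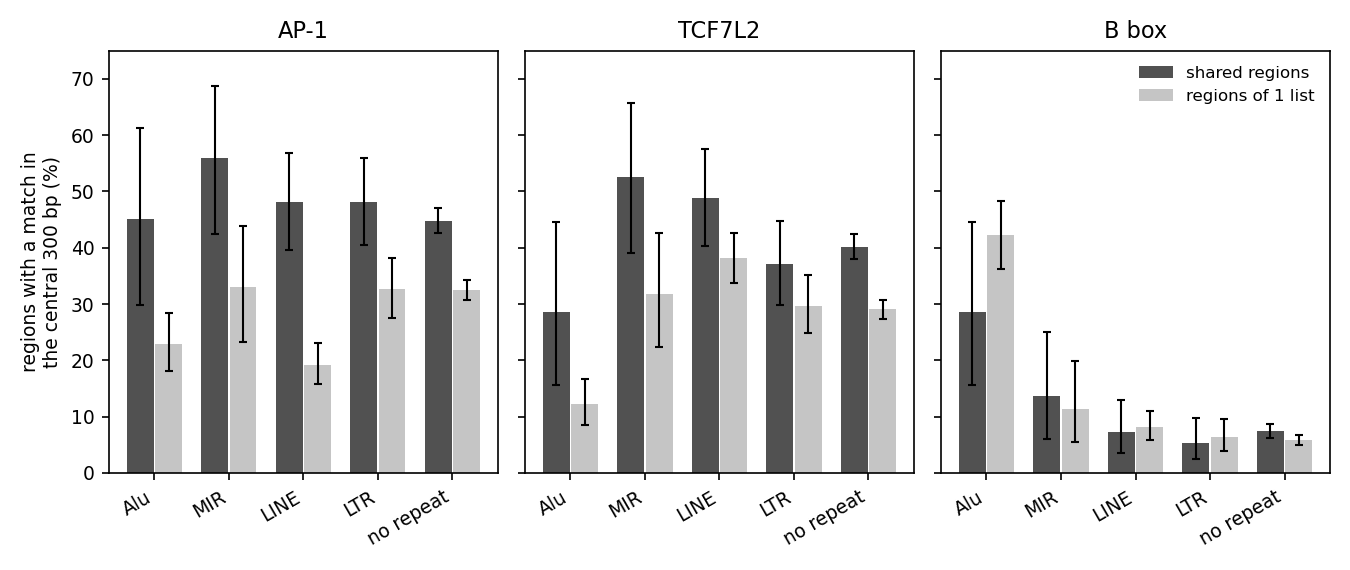
Percent of regions with an AP-1, TCF7L2 or B box word in the central 300 bp, for shared regions (dark) and regions of 1 list (light), by the repeat under the peak, with exact 95% intervals. AP-1 stands at 45.2% in shared and 23% in unshared Alu regions, and the B box is highest in Alu, at 28.6% and 42.2%.

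By subfamily, AP-1 words lay in 23 of 67 AluJ (34.3%, 23.2 to 46.9), 51 of 183 AluS (27.9%, 21.5 to 35) and 4 of 55 AluY regions (7.27%, 2.02 to 17.6). AluY thus had the fewest AP-1 words as well as the fewest shared peaks. Among Alu peaks with an AP-1 word, the word lay at the start of the element or at the second recurring place in 17 of 33 peaks of replicate 1 and 27 of 69 of replicate 2. AP-1 words in shared Alu peaks of replicate 1 lay within 50 bp of the peak centre in 15 of 22 cases (68.2%), and in replicate 2 in 10 of 23 (43.5%). The corresponding numbers for shared MIR peaks were 16 of 48 (33.3%) and 21 of 37 (56.8%), and for shared peaks outside repeats 41% and 43.3%. More than 1 AP-1 word was present in 13 of 59 shared MIR peaks of replicate 1 and in 3 of 42 shared Alu peaks.

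Alu peaks were richer in GC than MIR peaks, with medians of 49.5% and 42% in replicate 1 and 48.3% and 43% in replicate 2. The median number of CpG sites in the central 300 bp was 6.5 for Alu and 2 for MIR peaks in replicate 1, and 11 for AluY. A run of 15 A or T, as in the tail of an Alu, was present in 25 of 162 Alu peaks (15.4%) and 0 of 85 MIR peaks in replicate 1, which allows up to 3.53% for MIR, and in 24 of 197 and 1 of 113 in replicate 2.

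The 8 widest shared Alu regions by mean width rank included a region 2384 bp from the start of MIR21, which encodes a microRNA abundant in tumors. Its peak was 2136 bp wide in replicate 1 and 2369 bp in replicate 2 (chr17:57919828-57922195 in replicate 2, intergenic), and only replicate 2 was assigned to the AluJr. The region of ABCC2, an exporter of conjugated bilirubin and drugs, was 1254 and 1197 bp wide and lay in an AluYc3 in both replicates, 2393 bp from the start of the gene (chr10:101539336-101540588). A region 104274 bp from the start of AREG, which encodes the EGF receptor ligand amphiregulin, was 967 and 1253 bp wide (AluSz in replicate 2, chr4:75584240-75585491). In intron 1 of MIR100HG, the host transcript of a microRNA cluster, the AluSz region was 646 and 1932 bp wide (chr11:122064478-122065122), and it carried the TGACTCA form at its Alu start. The AluSq2 region 15275 bp from the start of SOX13, a transcription factor gene, was 681 and 941 bp wide and held 2 AP-1 words and 1 TCF7L2 word (chr1:204026632-204027311). The other 3 were assigned to KIF2C, a kinesin gene, in intron 6 of ARMH1 (681 and 981 bp), SECTM1 (564 and 1129 bp) and KRR1 (515 and 1862 bp). AP-1 words were present in the central 300 bp of 3 of these 8 regions. Only the ABCC2 and SOX13 regions were assigned to an Alu in both replicates.

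Among the 8 widest shared MIR regions, AP-1 words were present in the central 300 bp of 7. The widest was assigned to LOC100506860 and lay in intron 2 of LINC-PINT, a long non-coding RNA gene, with widths of 1302 and 2138 bp (chr7:130679060-130681196). Only its replicate 2 peak was assigned to the MIR. The region 25248 bp from TOP1, which encodes DNA topoisomerase I, was 968 and 1243 bp wide and lay in a MIR3 in both replicates (chr20:39631731-39632697). In intron 5 of VTI1A, a SNARE protein gene, the MIRc region was 858 and 1094 bp wide, and only replicate 2 was assigned to the MIRc. The DNMBP region, in intron 1 of this gene for a CDC42 exchange factor, was 734 and 1234 bp wide and was assigned to L2a, a LINE, in replicate 1. The MIRc region in intron 1 of LOC100505782 was 793 and 1075 bp wide and held 2 AP-1 and 3 TCF7L2 words (chr17:39560011-39560802). The MIRb region 22428 bp from H1F0, a linker histone gene, was 725 and 1171 bp wide with 2 AP-1 words. The last 2 were assigned to RDX, which encodes the membrane linker radixin (774 and 1056 bp), and CLOCK, a circadian transcription factor gene (678 and 1086 bp). The CLOCK region was assigned to L2a in replicate 2. Only the VTI1A region had no AP-1 word in its central 300 bp.

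Few shared members lay at a gene start. The nearest Alu region was 1789 bp from the start of DLGAP1-AS2 in an AluSx1, with widths of 157 and 583 bp, followed by the MIR21 and ABCC2 regions. The nearest MIR region lay 194 bp from the start of MLST8, a subunit gene of both mTOR complexes, in a MIRc of its intron 1, with widths of 315 and 758 bp. In the DLGAP1-AS2 and MLST8 regions, only the replicate 1 peak was assigned to the repeat. A MIR3 region lay 1350 bp from SH3RF2 and was 470 and 576 bp wide, and the LOC100505782 region lay 1738 bp from its gene.

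The widest unshared members were of different kinds. In replicate 1 the widest unshared MIR peaks, 1781 and 930 bp, were both assigned to REXO1L2P, a pseudogene, and 0% and 5.68% of their 50-base words were unique. The widest unshared Alu peaks of replicate 1 were 766 bp (AluSq2, near MIR378D2) and 513 bp (AluSg, 5059 bp from ABCC2), with 99.2% and 96.1% unique words. In replicate 2 the widest unshared Alu peaks lay in intron 1 of ACSL5, a fatty acid activating enzyme gene (2028 bp, AluJo), and intron 1 of CUEDC1 (1960 bp, AluSq2). The widest unshared MIR peaks of replicate 2 lay in intron 1 of ACTN4, which encodes an actin crosslinker (1706 bp), and 203773 bp from KRR1 (1687 bp).

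SINE regions were spread over 407 genes by nearest start, and 356 of these had a single region. There were 23 genes with 3 or more, with each shared replicate 1 peak counted as 1 region. The counts per gene below are not set beside all peaks of the gene. They do not show that SINE peaks were more frequent there than other peaks. PCDH7, a protocadherin gene, had the most, with 20 of the 521 regions: 11 Alu, 7 MIR and 2 others. Of the 20, 6 were shared, 13 were in replicate 2 only and 1 in replicate 1 only. All but 1 of the 20 lay in introns 1 or 2 of PCDH7. The shared Alu regions there were an AluSx1 of 461 and 529 bp (chr4:30780635-30781094) and an AluSz of 423 and 1007 bp. The AluSz region was assigned to the Alu in replicate 1 only. KRR1, a gene of ribosome assembly, had 9 regions with 3 shared, at 127328 bp or more from its start. DLGAP1-AS2 had 7 with 4 shared, and 5 of the 7 lay in intron 4 of DLGAP1. MIR8066 also had 7, with 1 shared, and all 7 lay in introns 2 or 3 of PPP3CA, a calcineurin subunit gene. LOC100507065 and MIR378D2 had 5 each. ABCC2, HS3ST1, LOC728084, MIR31HG and PDE4B had 4 each. The 12 genes with 3 regions were APBB2, AREG, ARHGAP18, DDX10, ERRFI1, MIR100HG, MIR3687-1, MTAP, PIP4K2A, REXO1L2P, TRIB1 and VTI1A. For APBB2, 2 of the 3 were adjacent replicate 1 peaks with the same replicate 2 partner of 956 bp. Counted by that partner, APBB2 had fewer than 3 regions. ERRFI1, an inhibitor of the EGF receptor, had 3 Alu regions of which 2 were shared, with widths of 427 and 831 bp and of 183 and 1284 bp. Both shared regions were assigned to the Alu in replicate 2 only.

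Gene lists were counted beside all 6183 genes with a peak, of which 6.58% had a SINE region. None of the control loci of the study with a peak (3 of 4) and none of 14 WNT pathway components with a peak had a SINE region, and the AP-1 family had none among 8 genes with a peak. Of 15 WNT targets with a peak, 2 had one (13.3%), and both were unshared AluY peaks of replicate 1. The TCF7L2 peak lay in intron 4 of 12 and was 491 bp wide with 81.9% unique words, and the MMP7 peak, near the gene of the protease matrilysin, was 146 bp wide with 27.1%. Among the 10 candidates of the study, which were chosen on these samples, PHLDB2 had an unshared AluSx1 peak of 918 bp in its intron 3 in replicate 2 (chr3:111616758-111617674).

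Of 17 MAPK feedback genes with a peak, 4 had a SINE region (23.5%), namely AREG, EREG, ERRFI1 and PHLDA1, and 3 of these had a shared one. All 4 were assigned to a SINE through replicate 2 peaks, and 0 had a replicate 1 peak assigned to a SINE. EREG, which encodes the EGF receptor ligand epiregulin, had a shared AmnSINE1 region in intron 1 with widths of 362 and 767 bp and 2 AP-1 words (chr4:75240038-75240803 in replicate 2). Of 20 adhesion and cytoskeleton genes with a peak, 4 had one: ACTN4, ITGB1, MYO10 and TJP1. The MYO10 region, in intron 2 of this unconventional myosin gene, was 404 and 400 bp wide with an AP-1 word, and the TJP1 region, in intron 12 of the gene for the tight junction protein ZO-1, carried the TGACTCA form. Among colon epithelium genes, KRT19, a keratin gene, had an unshared MIRb peak of 912 bp in its intron 1 in replicate 2. None of 15 RNA polymerase III machinery genes, 10 YAP/TEAD targets or 65 ribosomal protein genes with a peak had a SINE region. These lists are small, and their shares are given beside the 6.58% of all genes without a test.

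SINE peaks lay within 5 kb of a gene start less often than other intron and intergenic peaks. Within 5 kb of a transcription start site there were 25 of 253 SINE peaks in replicate 1 (9.88%, 6.5 to 14.2), against 15.8% of the others (Fisher's exact test, two-sided, adjusted p = 0.0225), and 28 of 322 in replicate 2 (8.7%, 5.86 to 12.3), against 13.3% (adjusted p = 0.0275). Among the wider 50% of each list this was no longer past the threshold (6.41% against 13.2%, exact test, adjusted p = 0.142, and 10.9% against 13%, adjusted p = 0.608). Alu peaks stood at 10.5% and 9.14% and MIR peaks at 7.06% and 7.96% (adjusted p = 0.608 in replicate 1, odds ratio interval 0.552 to 4.97, and 0.836 in replicate 2, interval 0.475 to 3.05, both exact tests). Much of the SINE difference lay within 1 kb, with 2 of 253 SINE peaks against 172 of 3442 others in replicate 1, and 0 of 322 against 164 of 4965 in replicate 2. From 1 to 5 kb, Alu stood at 9.88% and 9.14%, MIR at 5.88% and 7.96%, and peaks outside repeats at 11.5% and 10.6%. The 1 to 5 kb band was not tested. The median distance to a start was 34391 bp for SINE peaks and 33008 bp for the others in replicate 1, and 42790.5 and 37841 bp in replicate 2. It was 29681 bp for Alu and 43594 bp for MIR in replicate 1, and 40624 and 51345 bp in replicate 2. Introns held 41.4% of Alu peaks in replicate 1 and 58.4% in replicate 2, and 49.4% and 52.2% of MIR peaks.

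Chromosomes contributed unevenly. Chromosome 4 held 38 of the 322 SINE peaks of replicate 2 (11.8%, against 6.22% of all peaks) and 21 of 253 in replicate 1 (8.3%, against 5.62%), which includes the PCDH7, AREG and MIR8066 regions. Chromosome 7 held 25 SINE peaks in replicate 1 (9.88%, against 5.81%), 21 of them Alu, but 15 in replicate 2 (4.66%, against 6.27%). Chromosome 19, which is dense in Alu elements, held 2 SINE peaks in replicate 1 (0.791%, against 4.65% of all peaks) and 3 in replicate 2 (0.932%, against 3.68%). All peaks include those at promoters and exons, to which no repeat name was given.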

How the data were processed

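HCT-116 chromatin was profiled by ChIP-seq in 2 APC ChIP samples and 2 inputs. Per the labels and methods, the authors mapped single-end 50 bp reads to hg19 (BWA) and ran MACS2 separately for the replicates, each with the matching input. They adjusted the score threshold to reduce noise seen in the inputs while keeping positive control peaks, and annotated the peaks with RefGene. The versions of BWA and MACS2 are not given in the sources used here. Positions in the deposited lists were in bp on hg19, beside the nearest gene and a score. The score deposited by the authors equalled the end minus the start plus 2 in every row and was read as peak width. The deposited table of centre distances, in bp and made by the authors, gave the same 106 shared members among the 253 SINE peaks of replicate 1, with 0 differing by over 2 bp. Other values in that table were not used. Starts and ends are printed as deposited.

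Depth was unknown, so intervals (exact Clopper-Pearson, 95%) cover counting over regions only, and a count of 0 is given with the share that 3 counts allow. Peaks were grouped by the deposited repeat name. Shares were compared with Fisher's exact test, two-sided, with Benjamini-Hochberg adjustment over 10 comparisons of regions and over 7 motifs (scipy 1.17.1), at a threshold of 0.05. Odds ratios are conditional estimates. Widths were ranked, as the lists used here hold no p-value. Sequences and 50-base words were read from GRCh37, the same build, with pysam 0.24.0, and the pairing, motif search and tests were tested on simulated peaks. Host genes of introns were named through RefSeq transcripts. Gene lists were counted by the deposited gene name, and no name among the SINE regions had been turned into a date.

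Named regions were the 8 shared Alu and 8 shared MIR regions with the lowest mean width rank, the 3 of each nearest a start, the 2 widest unshared of each list, genes with 3 or more regions, and members assigned to the candidates, control loci, WNT target or AP-1 lists. Further genes of the MAPK feedback, adhesion and colon lists were named after their values were seen. The members and lists were chosen with earlier results of these data known. The alternatives were other distance limits, overlap of at least 1 bp, the wider 50% of each list, other comparison groups, whole peaks, shared regions only, and each list alone. Input libraries were not analysed here, and some results are not reported here.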

Additional observations from a re-analysis of the deposited data

How the results depend on the processing

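SINE peaks were shared less often than other peaks, past the threshold of the exact test, under all 14 alternatives except 2, both in the list of replicate 1. With the wider 50% of each list the difference was 1.43 percentage points in the opposite direction (exact test, adjusted p = 0.899), and with at least 90% unique words it was -8.25 (adjusted p = 0.0616), a setting chosen after the data were seen. Alu peaks were shared less often than MIR peaks past the threshold under every distance, overlap and uniqueness setting, but not with the wider 50% (-18 points in replicate 1 and -11.5 in replicate 2). The wider 50% also turned the SINE share of the lists (-1.01 points, exact test, adjusted p = 0.0227), the Alu share of SINE peaks (-12.4, adjusted p = 0.129) and the Alu against MIR share within 5 kb in replicate 1 (-4.94, adjusted p = 0.717). It left the SINE difference within 5 kb at -6.78 and -2.16 points, neither past the threshold. It holds fewer peaks. Of the 7 motifs, 4 differed between Alu and MIR, 0 with shared regions only, and 2 to 4 with 1 list alone (2 without replicate 1). Between SINE and other intron and intergenic regions 4 differed, 1 (the B box) with shared regions only, 3 to 4 with 1 list alone, and 6 with whole peaks, where AP-1 (-4.83 points, exact test, adjusted p = 0.0448) and EGR1 (-1.27, adjusted p = 0.0298) were added. Each of these motif counts above 0 includes the B box, whose difference was set by the choice of members. With shared regions only, no other motif was past the threshold. Single motifs changed direction in 3 cases, none past the threshold: SP1 between Alu and MIR without replicate 1 (0.508 points, and -0.559 without replicate 2), and, with shared regions only, AP-1 (6.12) and TCF7L2 (1.26) between SINE and other regions. No paired analysis was possible because the inputs, which share replicate numbers with the ChIP samples, had no values here. What the data cannot show is set by 2 ChIP libraries of unknown depth, by a threshold that the authors set, and by 50-base reads in repeated sequence.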

Other observations

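Some values belong to none of the comparisons above. The SINE peaks outside the Alu and MIR families were few but often shared: 5 of 6 in replicate 1 (83.3%, exact 95% interval 35.9 to 99.6) and 8 of 12 in replicate 2 (66.7%, 34.9 to 90.1). AmnSINE1, an ancient SINE of amniotes, gave 3 of 3 and 4 of 6, and MamSINE1 gave 2 of 2 and 3 of 4. All of these peaks had at least 90% unique words. AP-1 words lay in 7 of their 10 regions (70%, 34.8 to 93.3), namely in 2 of 5 shared and 5 of 5 unshared ones.

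LINE peaks, another class of repeats, had AP-1 words in 66 of 137 shared peaks of replicate 1 (48.2%, 39.6 to 56.9) and in 10 of 153 unshared ones (6.54%, 3.18 to 11.7). In replicate 2 the numbers were 56 of 133 (42.1%, 33.6 to 51) and 82 of 325 (25.2%, 20.6 to 30.3). Of the LINE peaks of replicate 1, 78 had under 50% unique words and 3 of these were shared (3.85%, 0.8 to 10.8).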
